A study of Sorghum bicolor with 9 samples.

Results

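The genes described here are 8 core genes of C4 photosynthesis in sorghum, taken by identifier from the 35281 genes of the deposited count table. They are 3 carbonic anhydrases, the C4 form of phosphoenolpyruvate carboxylase (PEPC), NADP-malate dehydrogenase (NADP-MDH), NADP-malic enzyme (NADP-ME), pyruvate phosphate dikinase (PPDK) and 1 gene for the small subunit of Rubisco (RBCS). The table itself gives a protein family label to 1 of the 8, NADP-ME, so the other names rest on the identifiers and not on annotation in the files. All 8 passed the filter on low counts that 22356 genes passed, and the lowest count of any of them in any library was 121.

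RNA came from leaves of wild-type plants of the inbred grain sorghum line BTx623 at the 4-leaf stage. There were 3 groups of 3 biological replicates: plants in normal soil (control), plants in moderately saline-alkali soil with a salt content of 3‰ at pH 8.1 (moderate), and plants in severely saline-alkali soil with 5‰ salt at pH 8.1 (severe). A second label gives the same salt digits in percent, and the series text, followed here, gives them in per mille. The sources used here give no salt content or pH for the control soil, no ions for the salt and no length of exposure, and they do not say whether a replicate was 1 plant or a pool.

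In C4 leaves of the NADP-ME type, such as those of sorghum and maize, carbon is fixed in a relay between mesophyll and bundle sheath cells. In the mesophyll, carbonic anhydrase turns CO2 into bicarbonate, PEPC joins bicarbonate to phosphoenolpyruvate to give oxaloacetate, and chloroplast NADP-MDH reduces oxaloacetate to malate. In the bundle sheath, NADP-ME splits malate into pyruvate and CO2 and Rubisco fixes that CO2, while PPDK, back in the mesophyll, turns pyruvate into phosphoenolpyruvate again.

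Total counts ran from 17792497 to 22449989 per library. Levels are in CPM, counts scaled to the library total. A gene with no count was taken to have an expected count of at most 3, which is 0.134 to 0.169 CPM on the raw totals. That range leaves out the libraries' scaling factors, so it does not bound normalised CPM. The severe libraries stood apart in their spread: the biological coefficient of variation was 60.1% among severe libraries, 26.2% among moderate ones and 24.7% among control ones, and severe replicate 1 had the lowest scaling factor of all, 0.512. Levels below are normalised CPM, on library totals multiplied by those factors, and levels compared between genes are the deposited FPKM, which are per length. In whole-leaf RNA, fewer cells of a type and less RNA per cell cannot be told apart. The 3 comparisons share libraries, so each has its own values and no overlap between them is drawn.

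Together the 8 genes took 3.01%, 2.59% and 2.22% of all counts in the control libraries, 0.503%, 0.622% and 0.658% in the moderate libraries and 0.098%, 0.174% and 0.145% in the severe libraries. The mean share was 0.594 ± 0.0812% in moderate leaves and 2.61 ± 0.396% in control leaves (SD, n = 3 each), a difference of -2.02 percentage points with an SE of 0.233. In severe leaves it was 0.139 ± 0.0382%, a difference of -2.47 points from control with an SE of 0.229. Neither pair of groups overlapped, and both gave the smallest p that an exact 2-sided permutation test of 3 against 3 libraries allows, 0.1. This share needs no scaling between libraries.

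In control leaves these were among the most abundant transcripts per length. By mean FPKM over the 35281 genes, PEPC ranked 55th at 1049 ± 332 FPKM, PPDK 69th at 826 ± 136, RBCS 74th at 717 ± 276, carbonic anhydrase Sobic.003G234200 161st at 253 ± 79.6 and NADP-MDH 192nd at 219 ± 37.1 (SD, n = 3). NADP-ME ranked 434th at 113 ± 12.3 FPKM, Sobic.003G234400 ranked 834th at 65.6 ± 20.9 and Sobic.003G234500 ranked 3077th at 15.9 ± 4.53. The neighbours PEPC, PPDK and RBCS in that order had ranges that overlapped, as had Sobic.003G234200 and NADP-MDH. The deposited gene length is the genomic span, introns included, for all 8 genes, so genes with long introns are placed too low in this order.

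That order per length was not kept under stress. By mean normalised CPM, which takes no account of length, PPDK led the 8 genes in every group. Its means were 10980, 2538 and 798 CPM in control, moderate and severe leaves. In moderate leaves PPDK was highest at 191 ± 30.7 FPKM, with NADP-MDH at 143 ± 17.8 and RBCS at 127 ± 46.4, and PEPC stood at 62.9 ± 12.4 (SD, n = 3). In severe leaves no gene of the 8 led in all libraries. NADP-ME had 71.9, 36.7 and 141 FPKM there, PPDK had 83.95, 84.1 and 29.0, and Sobic.003G234500 had 121, 29.7 and 40.9. These ranges overlapped one another, and NADP-ME was above PPDK in severe replicate 3 alone. PEPC averaged 24.6 ± 14.1 FPKM in severe leaves. Sobic.003G234200 was last of the 8 in severe leaves at 1.46 ± 0.803 FPKM and rank 13428.

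**Figure D1:**
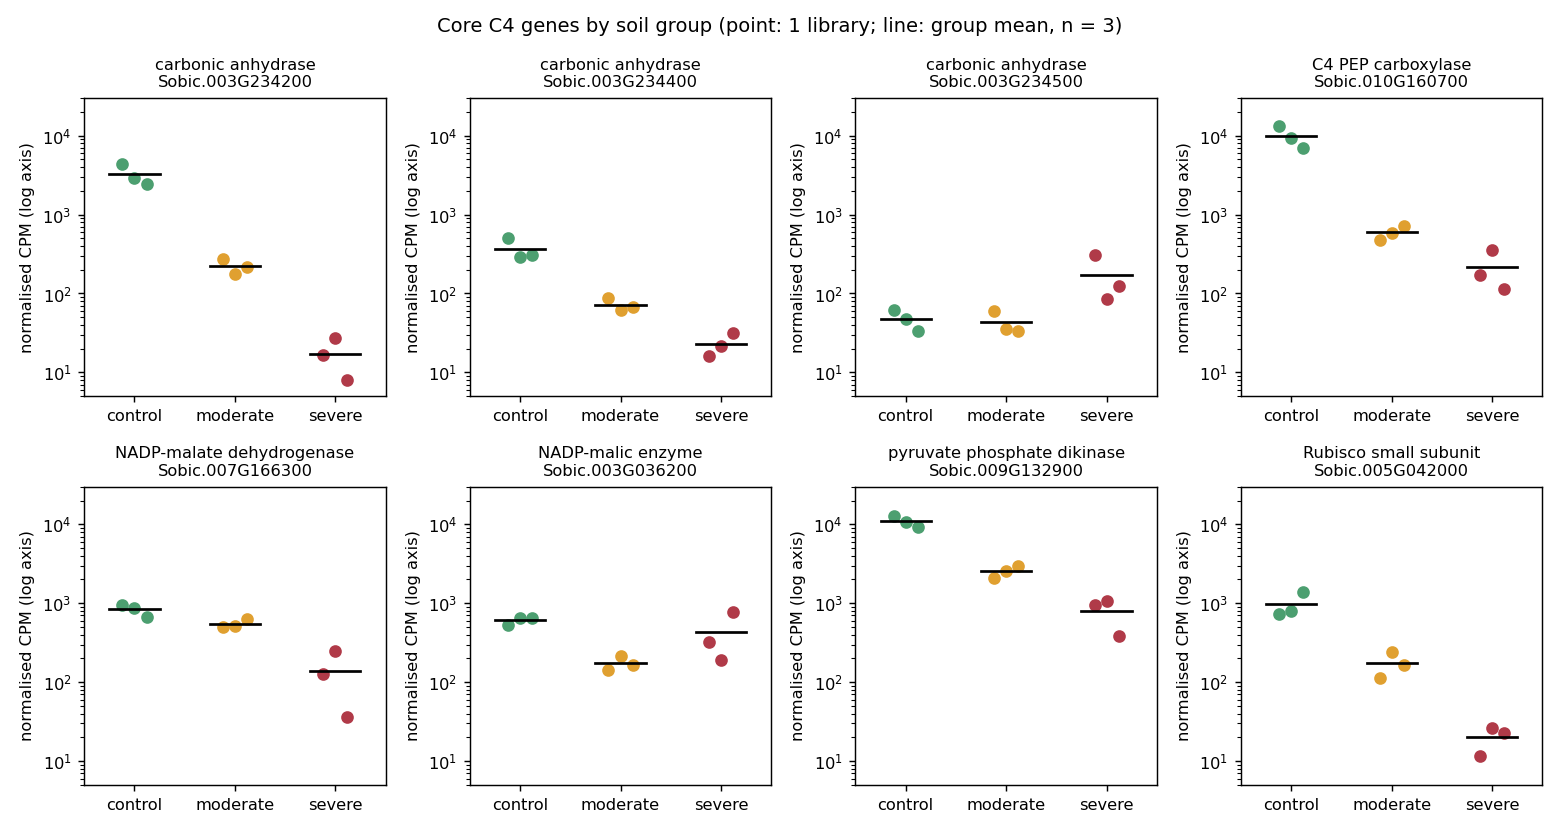
Level of each of the 8 genes in normalised CPM on a log axis, 1 panel per gene, with groups running from control through moderate to severe; points are single libraries and bars are group means. PEPC has a mean of 595 CPM in moderate leaves against 9893 CPM in control leaves, while Sobic.003G234500 is highest in severe leaves.

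Carbonic anhydrase supplies the bicarbonate that PEPC uses. The 3 genes lie side by side on one strand of chromosome 3, at 57297987 to 57310502, 57311562 to 57316959 and 57318984 to 57321883 in the coordinates of the deposited table, with gaps of 1059 and 2024 bases between them. The sources used here name no build for those coordinates. The genes did not change alike: the 2 genes that were higher in control leaves fell at both salt levels, and the third, the lowest of them in control leaves, was higher in severe leaves.

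Sobic.003G234200 had 4420, 2943 and 2448 CPM in control leaves, 274, 178 and 219 CPM in moderate leaves and 16.6, 27.4 and 8.10 CPM in severe leaves. None of the 3 groups overlapped. It was 14.6-fold lower in moderate than in control leaves (log2 change -3.87, SE 0.525, adjusted p = 0.00289) and 188-fold lower in severe than in control leaves (-7.56, SE 0.624, adjusted p = 2.6e-05). Of 22356 genes tested 215 had a larger fall in severe leaves. Between the stress levels it was 12.9-fold lower in severe than in moderate leaves (-3.69, SE 0.522, adjusted p = 0.000374).

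Sobic.003G234400 had 498, 289 and 308 CPM in control leaves, 86.7, 61.6 and 67.4 CPM in moderate leaves and 16.0, 21.9 and 31.6 CPM in severe leaves. Again no groups overlapped. The gene was 5.08-fold lower in moderate than in control leaves (-2.35, SE 0.340, adjusted p = 0.00372), 15.8-fold lower in severe than in control leaves (-3.98, SE 0.365, adjusted p = 3.98e-05) and 3.10-fold lower in severe than in moderate leaves (-1.63, SE 0.333, adjusted p = 0.00242). Its first 420 bases overlap Sobic.003G234300 on the other strand, and the sources used here do not say whether counting used strand; that gene had 3 to 26 counts per library, against at least 168 for Sobic.003G234400.

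Sobic.003G234500 had 61.0, 47.7 and 33.8 CPM in control leaves, 60.0, 35.4 and 33.5 CPM in moderate leaves and 305, 84.9 and 123 CPM in severe leaves. Moderate and control libraries overlapped, and every severe library lay above all others, with severe replicate 1 the highest. The gene was 3.61-fold higher in severe than in control leaves (1.85, SE 0.484, adjusted p = 0.00785) and 3.99-fold higher in severe than in moderate leaves (1.99, SE 0.486, adjusted p = 0.00599). Leaving out severe replicate 1 lowered the log2 change against control to 1.13 (adjusted p = 0.0162) and that against moderate to 1.27 (adjusted p = 0.0101). Between moderate and control leaves the log2 change was -0.14 (SE 0.470, adjusted p = 0.865).

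The shares of the 3 genes per length within a library separated the groups. Per length, Sobic.003G234500 made up 31.8 ± 3.77% of the 3 carbonic anhydrases in moderate leaves, against 4.77 ± 0.540% in control leaves (SD, n = 3). In severe leaves it made up 88.4 ± 6.99%, with 82.4% in the lowest library. The share of Sobic.003G234200 was lower under stress, with 39.1 ± 2.69% in moderate leaves and 75.6 ± 1.54% in control leaves, and 2.90 ± 2.84% in severe leaves. Sobic.003G234400 held 29.2 ± 1.57% in moderate and 8.69 ± 5.19% in severe leaves, against 19.7 ± 2.03% in control leaves. None of these 6 pairs of groups overlapped, and each gave the smallest exact permutation p, 0.1, or 0.106 after adjustment over the 18 within-library comparisons made. Counted without regard to length, the share of Sobic.003G234500 was 12.5 ± 1.92% in moderate, 76.4 ± 13.6% in severe and 1.30 ± 0.137% in control leaves. That of Sobic.003G234200 was 66.15 ± 2.04%, 10.1 ± 8.96% and 88.75 ± 0.998% in the same order. For Sobic.003G234400 it was 21.3 ± 0.919%, 13.5 ± 7.73% and 9.96 ± 1.12%. Its severe count shares, 4.73 to 19.4%, overlapped control (8.81 to 11.05%), and their mean was higher, not lower. The lengths are genomic spans, so the direction of that severe change depends on the measure. All 3 together took 0.046 ± 0.00933% of all counts in moderate leaves and 0.0149 ± 0.00300% in severe leaves, against 0.355 ± 0.0857% in control leaves.

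**Figure D2:**
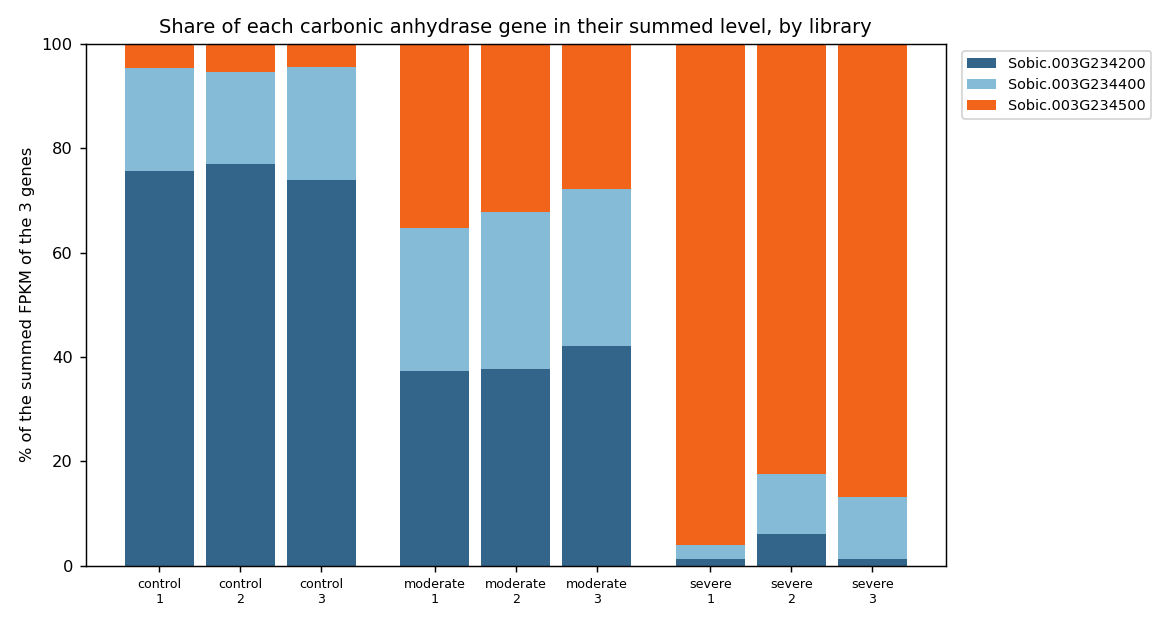
Share of each of the 3 carbonic anhydrase genes in their summed FPKM, 1 stacked bar per library, control libraries first, then moderate, then severe. Sobic.003G234200 fills 74.0 to 77.1% of the bars in control leaves and 1.21 to 6.17% in severe leaves, where Sobic.003G234500 fills 82.4 to 96.1%.

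A gene next to the cluster had a further pattern. Sobic.003G234101, which has no label and ends 268 bases before Sobic.003G234200 on the same strand, had 372 to 680 counts in moderate libraries and 11 to 39 in control libraries (log2 change 3.79, adjusted p = 0.00539), and no count in any severe library, which leaves room for an expected count of up to 3 in each. It was thus higher in moderate than in control leaves, where Sobic.003G234200 was lower.

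PEPC, Sobic.010G160700 on chromosome 10 at 47244445 to 47253575 on the minus strand, makes the first C4 acid. Its mean FPKM in control leaves was the highest of the 8 genes, although RBCS was above it in control replicate 3 (1035 against 753 FPKM). PEPC had 13238, 9399 and 7041 CPM in control leaves, 479, 584 and 721 CPM in moderate leaves and 172, 360 and 116 CPM in severe leaves. The groups were separate from one another. It was 16.6-fold lower in moderate than in control leaves (-4.06, SE 0.589, adjusted p = 0.00377), and of 22356 genes 128 had a larger fall in this comparison. It was 45.9-fold lower in severe than in control leaves (-5.52, SE 0.632, adjusted p = 0.000103), with a log2 change of -6.11 without severe replicate 2, the highest of the severe libraries.

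Between the stress levels PEPC was 2.76-fold lower in severe than in moderate leaves (-1.46, SE 0.531, adjusted p = 0.0361). That call was lost under 7 of 20 alternatives. With DESeq2's size factors its adjusted p was 0.0583; without control replicate 2 or any 1 moderate library it was 0.0528 to 0.113, and without severe replicate 1 or 3 it was 0.067 and 0.0706. Without severe replicate 2 the log2 change was -2.06 (adjusted p = 0.0094).

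NADP-MDH, Sobic.007G166300 on chromosome 7 at 60149510 to 60153216 on the minus strand, reduces oxaloacetate to malate in the mesophyll chloroplast. It had 958, 878 and 676 CPM in control leaves, 504, 509 and 629 CPM in moderate leaves and 129, 248 and 35.9 CPM in severe leaves. The groups did not overlap, but control and moderate lay close. Its log2 change was -0.61 in moderate against control leaves (SE 0.557, adjusted p = 0.489), which missed the threshold; fitted on those 6 libraries alone it was -0.59 with an adjusted p of 0.0339. In severe leaves NADP-MDH was 6.09-fold lower than in control leaves (-2.61, SE 0.589, adjusted p = 0.00367) and 3.98-fold lower than in moderate leaves (-1.99, SE 0.576, adjusted p = 0.0136). Severe replicate 2 was the highest and replicate 3 the lowest. Without replicate 2 the log2 changes were -3.36 against control and -2.74 against moderate leaves; without replicate 3 they were -2.09 and -1.50. Sobic.007G166200, which lies 1615 bases away on the same strand and has no label, passed the threshold in neither comparison with control, at log2 changes of -0.25 in moderate and -0.54 in severe leaves.

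NADP-ME, Sobic.003G036200 on chromosome 3 at 3317184 to 3322427 on the plus strand, releases CO2 in the bundle sheath chloroplast and carries the malic enzyme label Malic_M. It had 536, 657 and 649 CPM in control leaves, 145, 217 and 166 CPM in moderate leaves and 328, 190 and 768 CPM in severe leaves. Moderate libraries lay below all control libraries, while the severe libraries reached from the range of moderate to above control. NADP-ME was 3.49-fold lower in moderate than in control leaves (-1.80, SE 0.475, adjusted p = 0.0309). Without any 1 of the 6 libraries compared, the adjusted p was 0.069 to 0.111, and with total counts as the only scaling it was 0.117 at a log2 change of -1.33. Fitted on those 6 libraries alone, the log2 change was -1.78 with an adjusted p of 0.000568, where 9503 of 21109 genes were called.

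In severe against control leaves NADP-ME had a log2 change of -0.52 (SE 0.462, adjusted p = 0.338), and the groups overlapped. Severe replicate 3 set this value: without it the log2 change was -1.23 (adjusted p = 0.00733), and with library quality weights in voom it was -1.17 (adjusted p = 0.017). Against moderate leaves NADP-ME was 2.44-fold higher in severe leaves (1.28, SE 0.468, adjusted p = 0.0365), although severe and moderate libraries overlapped. This call was lost under 12 of 20 alternatives, with a log2 change of 0.56 (adjusted p = 0.121) without severe replicate 3, and without any 1 control or moderate library the adjusted p was 0.0533 to 0.109.

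PPDK, Sobic.009G132900 on chromosome 9 at 48725978 to 48738853 on the minus strand, regenerates the acceptor of PEPC. It had 12924, 10673 and 9344 CPM in control leaves, 2086, 2595 and 2933 CPM in moderate leaves and 939, 1067 and 389 CPM in severe leaves. The groups did not overlap. PPDK was 4.33-fold lower in moderate than in control leaves (-2.11, SE 0.515, adjusted p = 0.0231), a call that was lost without any 1 of the 6 libraries compared (adjusted p of 0.0535 to 0.0907). Fitted on those 6 libraries alone, PPDK had a log2 change of -2.09 with an adjusted p of 0.000947, where 9503 of 21109 genes were called. It was 13.8-fold lower in severe than in control leaves (-3.78, SE 0.552, adjusted p = 0.000354). Against moderate leaves it was 3.18-fold lower in severe leaves (-1.67, SE 0.507, adjusted p = 0.0171), with an adjusted p of 0.054 without moderate replicate 3.

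RBCS, Sobic.005G042000 on chromosome 5 at 3876057 to 3877378 on the minus strand, encodes the nuclear-encoded subunit of the enzyme that fixes CO2 in the bundle sheath. It is 1 gene for that subunit, and any others were not read here. It had 741, 787 and 1402 CPM in control leaves, 112, 240 and 167 CPM in moderate leaves and 11.5, 26.5 and 22.6 CPM in severe leaves. The groups were again separate. RBCS was 5.64-fold lower in moderate than in control leaves (-2.50, SE 0.447, adjusted p = 0.00742), 48.3-fold lower in severe than in control leaves (-5.59, SE 0.517, adjusted p = 4.06e-05) and 8.57-fold lower in severe than in moderate leaves (-3.10, SE 0.460, adjusted p = 0.000474).

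Counted over the 8 genes, 6 fell and none rose in moderate against control leaves, where 8.17% of all tested genes fell, 8.94% rose and 17.1% were called in either direction. Their median log2 change was -2.23, beside 0.015 over all tested genes. In severe against control leaves 6 fell and 1 rose, beside 34.9% of all tested genes falling, 31.6% rising and 66.5% called in all, with a median log2 change of -3.88 beside -0.189 over all tested genes. In severe against moderate leaves 6 fell and 2 rose, beside 33.6% falling, 29.6% rising and 63.2% called in all, with medians of -1.65 and -0.203. With so many genes called in the severe comparisons, 7 or 8 calls among 8 genes are not far from the background share. The groups did not overlap for 7 of the 8 in moderate against control (7 lower), where that held for 55.9% of tested genes (28.1% lower, 27.8% higher). It was 7 of the 8 in severe against control (6 lower, 1 higher), where it held for 72.1% (39.3% lower, 32.8% higher), and 7 in severe against moderate (6 lower, 1 higher), where it held for 69.6% (38.8% lower, 30.8% higher). By the authors' deposited table, 7 of the 8 were lower and none higher in moderate against control leaves at an adjusted p under 0.05. The share of all genes called in that deposited table was not counted here, so its 7 calls have no background beside them. A DESeq2 Wald test run here called 6 of the 8, all lower, beside 6191 of 22356 genes, 3021 of them lower. The addition in the authors' deposited table was NADP-MDH with a log2 change of -0.60 and an adjusted p of 0.00655.

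**Figure D3:**
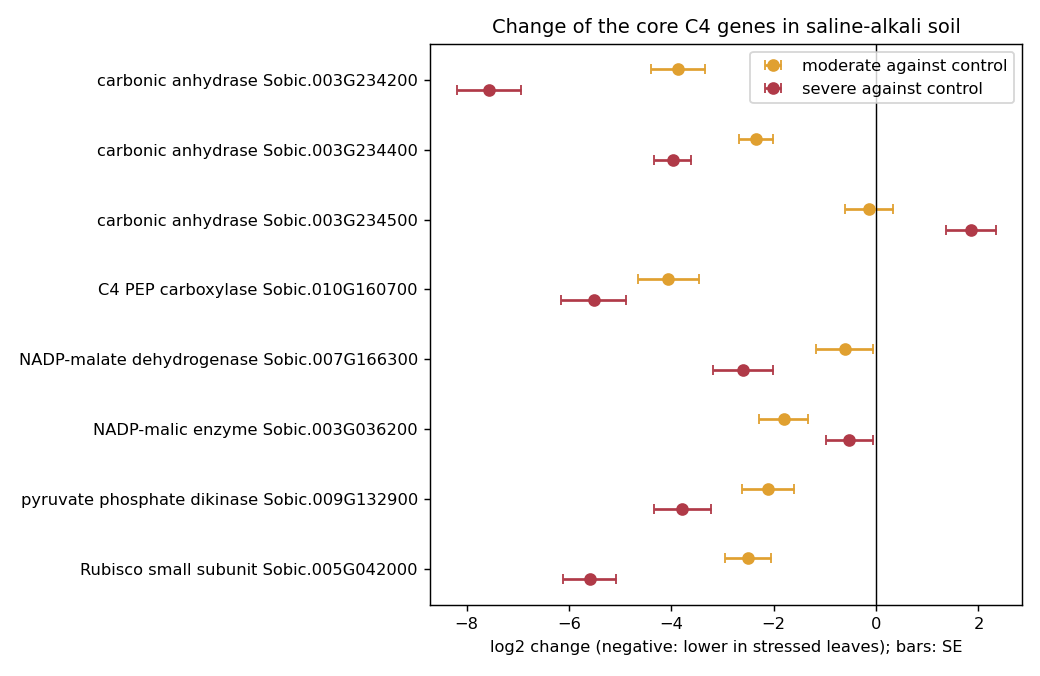
Log2 change of each of the 8 genes (rows) in moderate and in severe leaves, both against control, with bars of 1 SE from the quasi-likelihood fit; points left of the line at 0 are lower under stress. For severe leaves the changes run from -7.56 for Sobic.003G234200 to 1.85 for Sobic.003G234500.

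Ratios taken within a library do not depend on how libraries are scaled to one another, and here 3 against 3 libraries cannot give an exact permutation p under 0.1. Per length, the log2 ratio of PPDK to PEPC averaged 1.60 ± 0.0659 in moderate leaves and -0.31 ± 0.221 in control leaves (SD, n = 3 each), a difference of 1.91 (SE 0.133). In severe leaves it averaged 1.43 ± 0.466, a difference from control of 1.74 (SE 0.298). The ratio of NADP-MDH to PEPC averaged 1.19 ± 0.158 in moderate and 0.42 ± 0.701 in severe leaves, against -2.23 ± 0.226 in control leaves, differences of 3.42 (SE 0.159) and 2.65 (SE 0.425). The ratio of NADP-ME to PEPC averaged -0.96 ± 0.346 in moderate and 1.71 ± 1.83 in severe leaves, against -3.17 ± 0.604 in control leaves, differences of 2.21 (SE 0.402) and 4.88 (SE 1.11).

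RBCS belongs to the enzyme that fixes CO2 in the bundle sheath, and PEPC fixes bicarbonate in the mesophyll. The ratio below is between 2 single genes, so it is not the level of either whole step. The log2 ratio of RBCS to PEPC was 0.69, 1.51 and 0.68 in moderate libraries, against -1.37, -0.79 and 0.46 in control libraries, a difference of 1.53 (SE 0.605) with no overlap. In severe libraries it was -1.11, -0.97 and 0.43, which overlapped control, a difference of 0.016 (SE 0.731, exact permutation p = 1). All other ratio comparisons with control gave the smallest exact permutation p, 0.1 (0.106 adjusted). Between the 2 bundle sheath genes, the log2 ratio of RBCS to NADP-ME averaged 1.92 ± 0.269 in moderate and -2.26 ± 1.23 in severe leaves, against 2.60 ± 0.443 in control leaves.

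**Figure D4:**
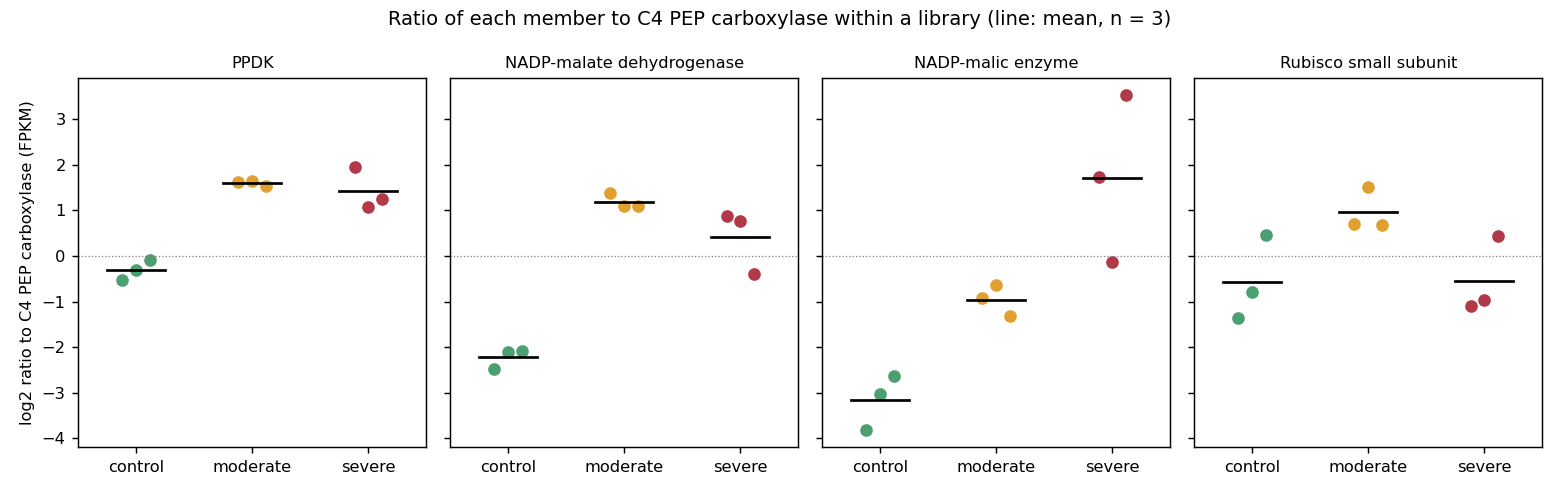
Log2 ratio per length of RBCS, NADP-ME, PPDK and NADP-MDH to PEPC in each library, 1 panel per ratio, with groups running from control through moderate to severe. PPDK, NADP-MDH and NADP-ME lie higher against PEPC in every moderate and severe library than in every control library, and RBCS in severe libraries overlaps its control values.

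Over the 9 libraries, the closest pair in log2 change from control was Sobic.003G234400 and PPDK, at a root mean square difference of 0.642, followed by NADP-MDH and PPDK at 1.07 and PEPC and RBCS at 1.09. The farthest pair was Sobic.003G234200 and Sobic.003G234500 at 5.81. All 8 genes had their widest replicate spread in severe leaves. The coefficient of variation of NADP-MDH was 12.9% in moderate, 77.2% in severe and 17.3% in control leaves. That of RBCS was close in all groups, 37.2% in moderate, 38.5% in severe and 37.8% in control leaves.

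NADP-ME was also set against the other genes labelled as malic enzymes (Malic_M or malic), a list fixed by label. Including NADP-ME the family has 9 genes. NADP-ME made up 46.2 ± 6.47% of the family's summed FPKM in moderate leaves and 80.0 ± 2.59% in control leaves, and 20.9 ± 13.1% in severe leaves (SD, n = 3), with no overlap between either stress level and control. The sum itself was 69.9 ± 7.57 FPKM in moderate and 393 ± 73.6 in severe leaves, against 142 ± 12.4 in control leaves. The lower share thus went with a lower sum in moderate leaves and with a higher sum in severe leaves. In severe leaves NADP-ME itself was not called against control. Of the other 8, all tested, 3 rose and 1 fell in moderate against control leaves (median log2 change 0.783, beside 0.015 over all tested genes), where 17.1% of all tested genes were called. In severe against control leaves 4 rose and 2 fell (median 1.21, beside -0.189), where 66.5% of all tested genes were called.

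Sobic.009G108700 averaged 76.2 ± 16.4 CPM in moderate leaves and 44.8 ± 5.62 CPM in control leaves (SD, n = 3), and these groups did not overlap (log2 change 0.77, SE 0.293, adjusted p = 0.104). In severe leaves it had 1024, 935 and 615 CPM (4.26, SE 0.333, adjusted p = 2.28e-05 against control), and its share of the family per length was 41.2 ± 13.2% there, against 5.45 ± 0.790% in control leaves. Sobic.003G292400 had 21229 counts over the severe libraries and 381 over the moderate ones, against 3 over the control ones. Scaled for library size, the ratio to control was 8890 in severe leaves (95% counting interval 3040 to 43100) and 88.7 in moderate leaves (30.1 to 432), and 286 of the 381 moderate counts came from moderate replicate 2. Sobic.003G280900 averaged 37.8 ± 2.18 CPM in moderate and 116 ± 38.4 CPM in severe leaves, against 8.40 ± 2.53 CPM in control leaves (2.17, SE 0.318, adjusted p = 0.00379 and 3.79, SE 0.339, adjusted p = 3.57e-05). The files do not say in which compartment or with which cofactor these 3 enzymes work.

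**Figure D5:**
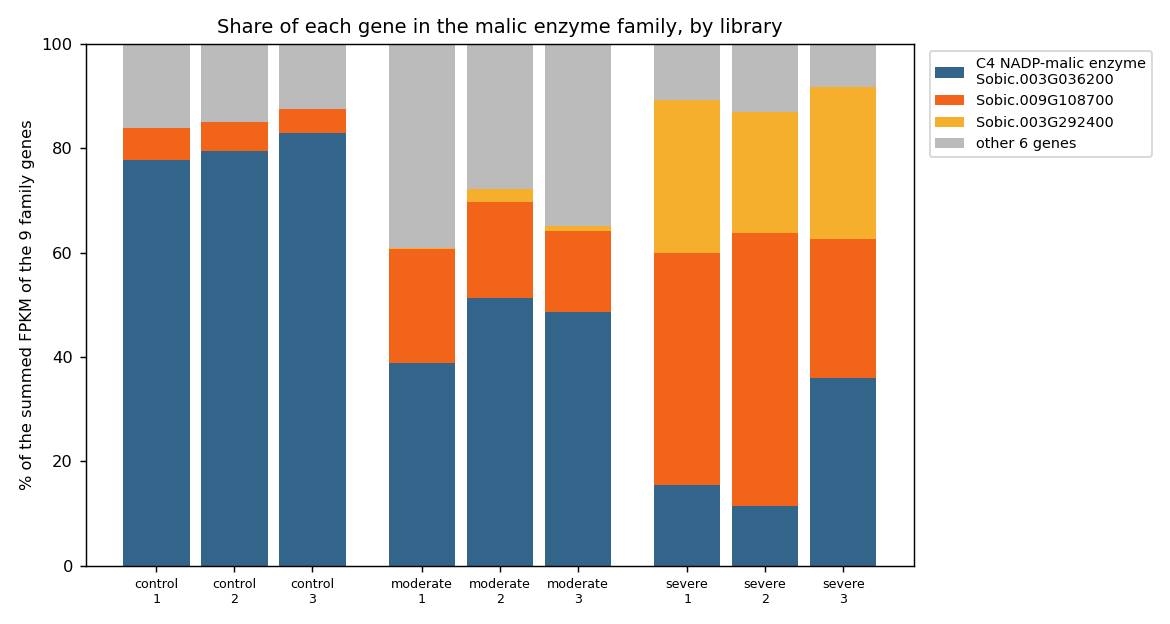
Share of NADP-ME, Sobic.009G108700, Sobic.003G292400 and the other malic enzyme genes in the family's summed FPKM, 1 stacked bar per library, control libraries first, then moderate, then severe. NADP-ME fills 77.8 to 82.9% of the bars in control leaves, 38.9 to 51.2% in moderate leaves and 11.5 to 35.9% in severe leaves.

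Sobic.003G036000, a malic enzyme gene 11581 bases from NADP-ME on the same strand, averaged 20.4 ± 3.58 CPM in moderate leaves and 17.7 ± 0.647 CPM in control leaves (log2 change 0.20, adjusted p = 0.54), and 77.8 ± 11.7 CPM in severe leaves (2.14, SE 0.215, adjusted p = 5.96e-05 against control). Of the 2 that fell in severe leaves, Sobic.009G069600 averaged 7.70 ± 3.58 CPM in severe leaves against 44.7 ± 8.59 CPM in control leaves (-2.54, SE 0.472, adjusted p = 0.00128), and Sobic.005G154850 had 1 count over the severe libraries against 103 over the control ones, a ratio of 0.0122 (95% counting interval 0.000306 to 0.0695). The sources used here do not say how reads shared between such copies were counted.

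Relatives of the cycle were looked up through protein family labels, since the table holds no gene descriptions for them. The family label DUF299, which in maize holds the regulatory protein that switches PPDK on and off by phosphorylation, was added after the file was seen and marks 3 genes. In moderate leaves 2 of the 3 fell and none rose, beside 17.1% of all tested genes called, and in severe leaves 2 fell and 1 rose, beside 66.5% called. Sobic.002G324400 averaged 117 ± 12.5 CPM in moderate and 50.6 ± 26.6 CPM in severe leaves, against 476 ± 85.01 CPM in control leaves (-2.02, SE 0.367, adjusted p = 0.00775 and -3.23, SE 0.385, adjusted p = 0.000124). Sobic.002G324500 averaged 24.6 ± 5.01 CPM in moderate and 8.30 ± 3.07 CPM in severe leaves, against 104 ± 7.38 CPM in control leaves (-2.07, SE 0.283, adjusted p = 0.00293 and -3.63, SE 0.304, adjusted p = 2.72e-05). Sobic.002G324700 averaged 43.5 ± 6.30 CPM in severe leaves, against 14.9 ± 2.11 CPM in control leaves (1.54, SE 0.244, adjusted p = 0.000531).

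Labels that hold transport, aminotransfer and energy steps of the cycle were also added after the file was seen, and each holds genes with other work as well. Over all tested genes 17.1% were called in moderate and 66.5% in severe against control leaves. Each label held genes that rose and genes that fell, and below the gene with the highest mean in control leaves is given beside one that rose, both chosen after their values were seen. Picking by the control level favours genes that fall against control, and the other pick is a rise by choice. The examples therefore do not show how a label changed.

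The label Na_sulph_symp, with the plastid dicarboxylate translocators, had 1 gene higher and 2 lower of 7 tested in moderate leaves, and 3 higher and 3 lower in severe leaves. Sobic.008G112300 averaged 79.6 ± 29.7 CPM in moderate and 6.69 ± 5.14 CPM in severe leaves, against 638 ± 79.9 CPM in control leaves. Sobic.002G245400, the label's most abundant gene over the 9 libraries, had 2695, 415 and 118 CPM in severe leaves, against a mean of 3.69 ± 1.42 CPM in control leaves (log2 change 8.18, SE 1.21, adjusted p = 0.000387). In moderate leaves it averaged 3.12 ± 0.908 CPM (-0.25, adjusted p = 0.885). All 3 severe libraries of this gene lay above the control libraries, with severe replicate 1 the highest.

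Under Aminotran_1_2, the aminotransferases, 4 of 30 rose and 3 fell in moderate leaves, and 13 rose and 10 fell in severe leaves. Sobic.004G331700 averaged 149 ± 30.5 CPM in moderate and 134 ± 53.1 CPM in severe leaves, against 1037 ± 287 CPM in control leaves. Sobic.003G303300, the most abundant of the label over the 9 libraries, had 2553, 1216 and 597 CPM in severe leaves, against a mean of 74.9 ± 11.5 CPM in control leaves (4.28, SE 0.534, adjusted p = 0.000158), and averaged 50.9 ± 8.02 CPM in moderate leaves (-0.56, adjusted p = 0.453).

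Under ADK, adenylate kinase, which recovers the AMP that PPDK releases, 2 of 12 rose and 3 fell in moderate leaves and 4 rose and 5 fell in severe leaves. Sobic.007G009200 averaged 212 ± 59.4 CPM in moderate and 103 ± 54.9 CPM in severe leaves, against 995 ± 206 CPM in control leaves. Sobic.004G318100 averaged 59.9 ± 9.12 CPM in moderate and 54.8 ± 6.32 CPM in severe leaves, against 15.5 ± 4.83 CPM in control leaves (1.95, adjusted p = 0.00302 and 1.82, adjusted p = 0.000372). Under Pyrophosphatase, which removes the pyrophosphate that PPDK releases, 1 of 6 rose and 1 fell in moderate leaves and 1 rose and 3 fell in severe leaves. Sobic.004G311100 averaged 297 ± 39.0 CPM in moderate and 57.9 ± 25.04 CPM in severe leaves, against 1147 ± 103 CPM in control leaves. Sobic.009G016000 averaged 196 ± 84.9 CPM in moderate leaves against 20.9 ± 3.39 CPM in control leaves (3.23, SE 0.520, adjusted p = 0.00533), and 15.6 ± 10.8 CPM in severe leaves (-0.43, adjusted p = 0.448).

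On the side of Rubisco, the ribose-5-phosphate isomerase label of the Calvin cycle was not among the labels fixed for the lists. It had 1 of 4 genes lower and none higher in moderate leaves, and 3 lower and 1 higher in severe leaves. Over all tested genes 8.17% fell and 8.94% rose in moderate leaves, and 34.9% fell and 31.6% rose in severe leaves. Under RuBisCO_large, also not among the fixed labels, 2 genes were tested, at means of 4.83 and 1.02 CPM in control leaves. Both fell in severe leaves, to 22 and 7 counts over the severe libraries, with none called in moderate leaves. These 2 genes lie on chromosomes 3 and 5. RBCS being the nuclear-encoded subunit of Rubisco, they are not read as the level of the large subunit. For photorespiration, which recycles the product of oxygenation by Rubisco, 3 labels were read, of which SHMT alone was among those fixed for the lists. Serine hydroxymethyltransferase (SHMT) had none of 4 genes called in moderate leaves and 1 higher and 1 lower in severe leaves. In moderate leaves 1 was higher and 1 lower when only the 6 moderate and control libraries were fitted, where 9503 of 21109 genes were called. The same held without severe replicate 1 or 3, where 7368 of 22995 and 5307 of 22872 genes were called. Among FMN-dependent dehydrogenases, the family of glycolate oxidase, none of 6 was called in moderate leaves, and 5 of 6 fell and none rose in severe leaves, where 34.9% of all tested genes fell. Sobic.002G036000 averaged 382 ± 34.4 CPM in moderate and 52.4 ± 40.7 CPM in severe leaves, against 312 ± 51.1 CPM in control leaves. The glycine cleavage T gene Sobic.006G220800 averaged 120 ± 12.8 CPM in moderate and 6.36 ± 2.86 CPM in severe leaves, against 115 ± 11.3 CPM in control leaves (log2 change 0.062, adjusted p = 0.91 and -4.18, SE 0.334, adjusted p = 2.38e-05). No gene of the table carries the labels set for light harvesting, for the leaf or for other tissues, so the tissue was not checked by such markers. The ranks of the 8 genes in control leaves are no independent check, since these are the genes under study. Those ranks also do not cover the stressed leaves.

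Of 14860 genes at a mean of at least 5 CPM, the pattern most like that of PEPC over the 9 libraries was that of Sobic.002G297300, at a root mean square difference of 0.442 in log2 change from control. It was followed by Sobic.002G186600 (label Str_synth, 0.514), Sobic.001G527000 (0.591), Sobic.007G004700 (label Fer2, 0.597) and Sobic.001G134800 (0.615). Closest to the mean profile of the 8 genes were Sobic.003G306200 (0.219), Sobic.003G440500 (0.227), Sobic.002G324500 (0.253), Sobic.003G014100 (0.258) and Sobic.002G277100 (0.26). The third of these is the DUF299 gene described above.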

How the data were processed

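Libraries of leaf RNA were aligned with HISAT2 2.0.5, and DESeq2 1.20.0 gave the authors' fold changes, per the submitters' processing notes. The read counter, genome build, strandedness and treatment of shared reads were not given in the sources used here. As deposited by the authors, there was 1 table of 35281 genes with raw counts, FPKM per library, and their own log2 fold changes and adjusted p-values. The deposited FPKM use the genomic span as length, and their library constant follows size factors. The authors' deposited group means of normalised counts (a signal scale) were not used. Counts were fitted in R 4.3.3 with edgeR 4.0.16 (filterByExpr with the 3 groups, TMM, quasi-likelihood F-test, 2-sided, all 9 libraries sharing the spread, Benjamini-Hochberg over 22356 genes per comparison, threshold 0.05). SE is the absolute log2 change divided by the square root of F. CPM use TMM-scaled totals, and values after ± are SDs. Floors and intervals cover counting error only, since reads that carry no molecular identifiers can repeat 1 molecule. Alternatives used limma 3.58.1 (also on log2(FPKM + 1)) and DESeq2 1.42.0.

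The 8 genes, lists and tests were chosen with earlier results of these data known. All 8 are given in full. From each list or label the rule took the most abundant gene and up to 3 genes of lowest adjusted p for either stress level against control, and the examples printed were picked from these with their values known. Likeness was the root mean square difference of log2(CPM + 0.5) minus the control mean. Of 5 lists fixed by words and labels, 2 held a tested gene.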

Additional observations from a re-analysis of the deposited data

How the results depend on the processing

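Of 24 tests (8 genes in 3 comparisons) 21 were called, and 16 of the 21 calls held in all 20 alternatives; the 5 that did not are given with their values beside the gene, PEPC in severe against moderate, NADP-ME in moderate against control and severe against moderate, and PPDK in moderate against control and severe against moderate. The number of the 8 called was 4 to 7 in moderate against control, 7 to 8 in severe against control and 5 to 8 in severe against moderate, where leaving out 1 library at a time gave 5 to 8, with 5 without moderate replicate 3. The difference of the log2 ratio of RBCS to PEPC between severe and control leaves changed sign when libraries were left out, from -0.47 to 0.53. The log2 change of Sobic.003G234500 in moderate against control leaves, which was not called, was 0.35 with total counts as the only scaling, and -0.44 to 0.073 when 1 library was left out, positive without control replicate 1, moderate replicate 2 (0.00099) or moderate replicate 3 (0.031); the cause was not tested. That scaling moved the median log2 change of all tested genes to 0.492 in moderate against control, beside 0.015, and to -0.978 in severe against moderate, beside -0.203. Calls over all genes in moderate against control were 3825 of 22356. Without control replicate 1 they were 1488 of 23076, where 4 of the 8 were called. With the 6 libraries compared alone they were 9503 of 21109, beside 7 of the 8, and with voom weights 11459 of 22356, beside 6 of the 8. Over the alternatives they ran from 12659 to 15881 in severe against control and from 11982 to 15191 in severe against moderate. With the replicate number as a block, 6 of the 8 genes were called in moderate against control, beside 3533 of 22356 tested genes. In severe against control and in severe against moderate 7 of the 8 were called, beside 14606 and 13915 of 22356. NADP-ME was lost in severe against moderate with the block (1.15, adjusted p = 0.0633). Deviations of same-number libraries correlated at -0.0263 to 0.238, over 0.1 in 5 of 9 pairs (all 3 pairs of number 1 among them) against 2 of 18 pairs of different number, and 12 of 18 best matches were with the own number. Since not every same-number pair passed 0.1 and the labels name no shared source, the numbers were not used as pairs; these values are a hint from the data and not from the design. Depth limited none of the 8 genes, whose lowest count was 121.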
